A study of Mus musculus with 8 samples.

Results

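The 9 inflammatory CC chemokine genes Ccl2, Ccl3, Ccl4, Ccl5, Ccl6, Ccl7, Ccl8, Ccl9 and Ccl12 were examined in peritoneal MC38 tumors after STING activation. They were chosen by gene symbol, and all 9 were among the 750 immune-related genes of the NanoString mouse immune panel, an assay that counts color-coded probes bound to single transcripts without amplification. MC38 is a murine colon cancer cell line, of which 500000 cells were implanted into the peritoneum of male, wild-type C57BL/6 mice aged 7 to 8 weeks. From day 7 after implantation, mice received 2 intraperitoneal injections of either PBS or 15 µg of RR-CDA, a cyclic dinucleotide agonist of STING, and whole tumors were taken 10 days after the first injection. There were 4 tumors in each group. The panel counts of a tumor summed to between 241506 and 414698, and neither this sum (two-sided exact permutation test, p = 0.971) nor the geometric mean of the 20 housekeeping genes (two-sided exact permutation test, p = 0.4) differed between the groups beyond their spread. The tumors labeled as controls are called PBS here. PBS 2 and PBS 4 differed by less than the sampling noise over the 358 genes averaging 20 to 300 counts (chi-square per degree of freedom 0.404, where the 11 remaining within-group pairs gave 5.89 to 12.561). They were averaged and counted as 1 sample, which left n = 3 PBS samples against n = 4 treated samples. Among 61 abundant genes, those averaging 1000 counts or more, the same pair differed by more than sampling noise, the chi-square per degree of freedom being 6.39 where other pairs gave 45.07 to 364.08. The sources used here do not state that the tumors of a group came from separate animals, so a p-value measures only the spread between these samples. Per the study, the tumors were pooled from 2 experiments, and as the experiment of each tumor is not given in the sources used here, the spread within a group can include a difference between experiments.

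CC chemokines are small secreted proteins that attract leukocytes by binding G protein-coupled receptors. Ccl2, Ccl7 and Ccl12 draw monocytes out of the blood mainly through the receptor Ccr2, and mouse Ccl8 acts through Ccr8 beside Ccr2. Ccl3, Ccl4 and Ccl5 attract macrophages, T cells and NK cells, and Ccl6 and Ccl9 are rodent chemokines that act through Ccr1. STING senses cyclic dinucleotides and activates IRF3 and NF-kappaB, factors known to induce several of these genes.

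Counts were divided by a scaling factor from the housekeeping genes, and these scaled counts are given throughout. A gene was called at an unadjusted p under 0.05 in edgeR's quasi-likelihood test. Of the 9 chemokines, 5 were called higher in the treated tumors, namely Ccl2, Ccl7, Ccl3, Ccl4 and Ccl5, beside 17.7% of the 750 panel genes (133 genes), and 0 were called lower, beside 1.33% of the panel (10 genes). All 9 chemokines averaged 20 counts or more, and of the 519 panel genes that did so, 121 were called higher. The groups did not overlap in 4 of the 9, all higher after treatment, beside 16.8% of the panel. The median log2 fold change was 0.63 over the 9 chemokines and 0.21 over the panel. After Benjamini-Hochberg adjustment over the panel, edgeR's quasi-likelihood test called 0 chemokines and 0 panel genes (the lowest adjusted p was 0.171, and 0.181 among the chemokines). Of the other tests, the Wald test of DESeq2 called 52 panel genes after adjustment, none of them among the 9 chemokines, and the same 5 chemokines without adjustment. In these bulk samples, more cells that make a chemokine and more RNA per cell cannot be told apart.

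**Figure D1:**
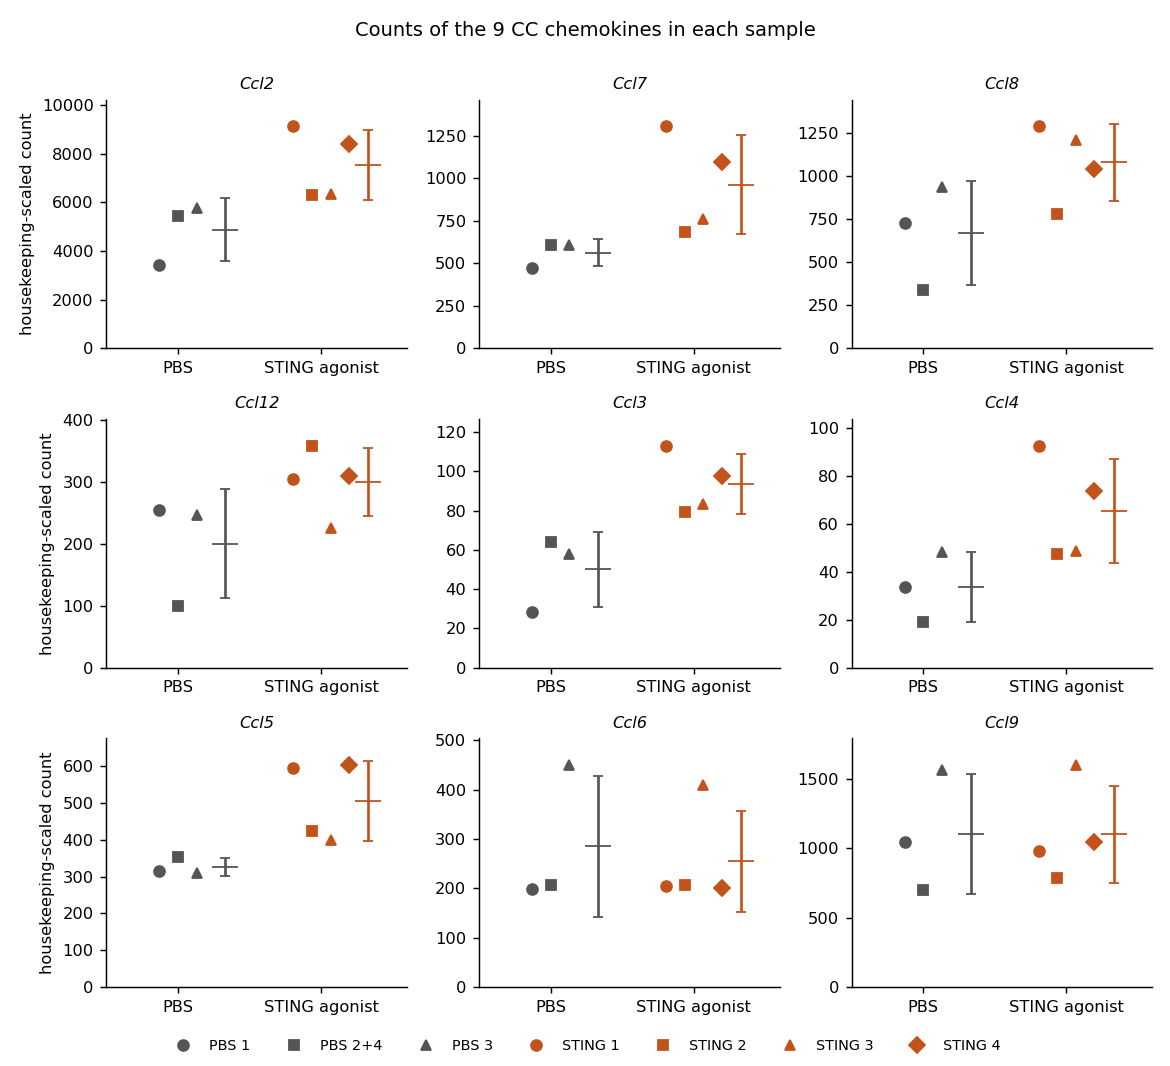
Housekeeping-scaled count (vertical axis, starting at 0) of each of the 9 chemokine genes in the 3 PBS samples (grey) and 4 STING agonist samples (orange), with the mean ± SD of the group at the right of its points. The groups are separate for Ccl2, Ccl7, Ccl3 and Ccl5, whereas for Ccl6 and Ccl9 PBS 3 and STING agonist 3 lie above the other samples of their groups.

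Among Ccl2, Ccl7, Ccl8 and Ccl12, the group of Ccr2, Ccl2, the main monocyte attractant of the family, gave 3405 scaled counts in PBS 1, 5460 in the averaged PBS 2 and 4, and 5773 in PBS 3, against 9131, 6307, 6364 and 8385 in STING agonist 1 to 4. All 4 treated tumors lay above all PBS samples, with STING agonist 1 and 4 highest and PBS 1 lowest. The means were 4879 ± 1286 (SD, n = 3) and 7547 ± 1432 (SD, n = 4), a 1.55-fold difference. The log2 fold change of Ccl2 was 0.63 ± 0.23 (SE), with an adjusted p of 0.217 by edgeR's quasi-likelihood test with Benjamini-Hochberg adjustment and an unadjusted p of 0.023 in the same edgeR fit. It was not called without PBS 1 (log2 fold change 0.43) or without STING agonist 1 (0.53). Nor was it called with the TMM normalization of edgeR (0.37), the size factors of DESeq2 (0.36) or the replicate number as a block (0.585). As separate tumors, PBS 2 had 5263 and PBS 4 had 5739 scaled counts of Ccl2.

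Ccl7, which lies next to Ccl2 on the chromosome, had 471, 608 and 608 scaled counts in PBS 1, PBS 2 and 4, and PBS 3, and 1304, 682, 760 and 1097 in STING agonist 1 to 4. Its groups did not overlap either, and the order of the 7 samples from lowest to highest was that of Ccl2. The difference was 1.71-fold, with a log2 fold change of 0.77 ± 0.25 (SE) and an adjusted p of 0.185 by edgeR's quasi-likelihood test with Benjamini-Hochberg adjustment. Without PBS 1 its unadjusted p was 0.0503 in the edgeR fit, and the log2 fold change was 0.66. Ccl7 was also not called with the replicate number as a block (0.65).

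Ccl8 gave 730, 339 and 939 scaled counts in PBS 1, PBS 2 and 4, and PBS 3, and 1290, 783, 1211 and 1040 in STING agonist 1 to 4. STING agonist 2 lay below PBS 3, so that the groups overlapped, and the averaged PBS sample was lowest. Ccl12, which in mice attracts monocytes as Ccl2 does, had 255, 99.5 and 246 scaled counts in the PBS samples and 305, 358, 225 and 309 in the treated ones. Here too the averaged PBS sample was lowest, and STING agonist 3 lay below PBS 1 and PBS 3. Neither gene was called, with log2 fold changes of 0.69 ± 0.33 (SE; adjusted p = 0.292) for Ccl8 and 0.58 ± 0.32 (SE; adjusted p = 0.361) for Ccl12 by edgeR's quasi-likelihood test with Benjamini-Hochberg adjustment. With all 8 tumors as separate samples both passed the unadjusted threshold, with log2 fold changes of 0.88 and 0.77, and Ccl8 also passed it without PBS 3 (1.01) and without STING agonist 2 (0.82). Without PBS 2 and 4, the log2 fold changes were 0.37 for Ccl8 and 0.26 for Ccl12. The low PBS value of both genes was present in each tumor of the averaged pair, with 330 and 350 scaled counts of Ccl8 and 97.4 and 101 of Ccl12.

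Among the chemokines that attract T cells, NK cells and macrophages, Ccl5 was the most even gene of the 9 in the PBS group. It had 314, 354 and 310 scaled counts in PBS 1, PBS 2 and 4, and PBS 3, a 1.14-fold range, where panel genes averaging 20 counts or more had a median range of 1.57-fold. In STING agonist 1 to 4 it had 596, 424, 399 and 603. All treated tumors lay above all PBS samples, and STING agonist 1 and 4 stood above the other two. The mean went from 326 ± 24.3 (SD, n = 3) to 505 ± 109 (SD, n = 4), with a log2 fold change of 0.63 ± 0.20 (SE). The adjusted p of 0.181, by edgeR's quasi-likelihood test with Benjamini-Hochberg adjustment, was the lowest of the 9 chemokines, and Ccl5 passed the unadjusted threshold whichever 1 of the 7 samples was left out. Ccl5 did not pass it with the TMM normalization of edgeR (log2 fold change 0.36) or the size factors of DESeq2 (0.34). With the replicate number as a block it was not called either (0.51).

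Ccl3 and Ccl4, also called MIP-1α and MIP-1β, gave few counts, with unscaled counts of Ccl3 between 30 and 109 and of Ccl4 between 16 and 82 in the 7 samples, above a background of 8.62 counts set by the negative control probes. The 16 is the average of 18 raw counts in PBS 2 and 14 in PBS 4. Ccl3 had 28.2, 64.0 and 57.8 scaled counts in the PBS samples and 113, 79.5, 83.1 and 97.7 in the treated ones. The groups did not overlap, and PBS 1 was lowest. For Ccl4 the PBS samples had 33.8, 18.9 and 48.3 scaled counts and the treated ones 92.6, 47.2, 48.8 and 73.5. STING agonist 2 lay just below PBS 3, and STING agonist 1 and 4 were again highest. The folds were 1.87 for Ccl3 and 1.94 for Ccl4, with log2 fold changes of 0.90 ± 0.32 (SE; adjusted p = 0.207) and 0.94 ± 0.40 (SE; adjusted p = 0.243) by edgeR's quasi-likelihood test with Benjamini-Hochberg adjustment. Ccl3 was not called without PBS 1 (0.62) or without STING agonist 1 (0.80), nor under TMM (0.65), the DESeq2 size factors (0.63) or the replicate block (0.92). Ccl4 was not called without PBS 1 (0.94), PBS 2 and 4 (0.67), STING agonist 1 (0.73) or STING agonist 4 (0.88), nor after subtraction of the background (1.25). The DESeq2 size factors (0.70), the total panel count (0.70), the positive controls (0.89) and the replicate block (0.91) did not call Ccl4 either.

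The Ccr1 ligands Ccl6 and Ccl9, both made by myeloid cells, had another pattern. Ccl6 gave 199, 206 and 450 scaled counts in PBS 1, PBS 2 and 4, and PBS 3, and 205, 206, 409 and 200 in STING agonist 1 to 4. Thus 5 of the 7 samples lay between 199 and 206, and PBS 3 and STING agonist 3 lay apart, with 1 in each group. Ccl9 gave 1044, 702 and 1566 scaled counts in the PBS samples and 980, 783, 1600 and 1043 in the treated ones. PBS 3 and STING agonist 3 were again highest, and the groups overlapped over most of their range. The ratio of the means was 0.895 for Ccl6 (log2 fold change -0.16 ± 0.37, SE; adjusted p = 0.877) and 0.998 for Ccl9 (SE 0.31; adjusted p = 0.993) by edgeR's quasi-likelihood test with Benjamini-Hochberg adjustment. Without PBS 3 the log2 fold changes were 0.33 for Ccl6 and 0.34 for Ccl9, and no alternative called either gene.

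**Figure D2:**
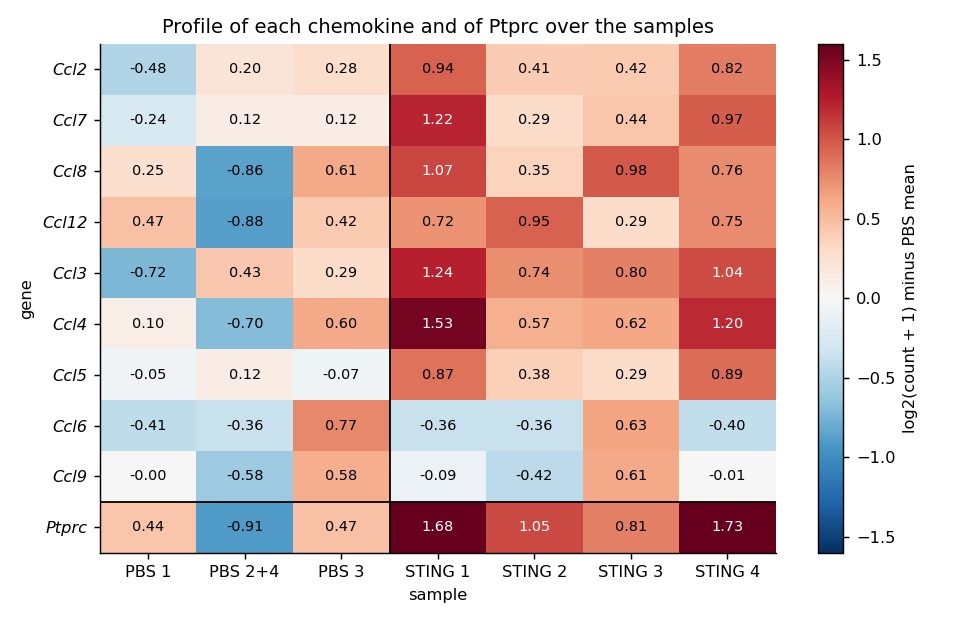
Log2(scaled count + 1) of each chemokine and of Ptprc, the gene of the leukocyte antigen CD45, minus the mean of the 3 PBS samples, with samples in columns and genes in rows. Ccl2, Ccl7, Ccl3, Ccl4 and Ccl5 have their highest values in STING agonist 1 and 4, whereas Ccl6 and Ccl9 are high in PBS 3 and STING agonist 3, and Ccl8, Ccl12, Ccl4 and Ptprc are low in the averaged PBS 2 and 4.

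The profiles over the 7 samples placed the chemokines in different neighborhoods. Likeness was measured as the root mean square difference of log2(scaled count + 1) after subtraction of the mean of each gene, so that 0 is an identical profile. Ccl2 and Ccl7 differed by 0.16 and Ccl5 and Ccl7 by 0.17, and Ccl6 and Ccl9 differed by 0.25, whereas Ccl4 and Ccl6 differed by 0.81. The gene nearest to Ccl6 among the 519 panel genes averaging 20 counts or more was Ccl9 (0.25), followed by Klrg1 (0.28), a receptor of NK and T cells. The gene nearest to Ccl9 was Itga6 (0.16), an integrin subunit, followed by Cd200r1 (0.21). Nearest to Ccl2 were Cxcl1 (0.13), a neutrophil chemokine, and Icosl (0.15), a costimulatory ligand. Nearest to Ccl5 were Socs1 (0.11) and Isg20 (0.14), both known as interferon-induced genes, and nearest to Ccl4 were C3ar1 (0.12), the receptor of complement fragment C3a, and Ctsw (0.13). Ccl7 was nearest to Map3k1 (0.12) and Cyfip2 (0.14), and Ccl3 to Cd200 (0.16) and C1s1 (0.16). The genes nearest to Ccl8 were Csf2rb (0.18) and the macrophage scavenger receptor Msr1 (0.20), and those nearest to Ccl12 were the protease gene Mmp9 (0.16) and the collagen gene Col1a1 (0.19).

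All 9 genes lie on mouse chromosome 11 in the RefSeq annotation (GRCm38.p6), and the accession of each probe matched its gene there. Ccl2 and Ccl7 are neighbors, with Ccl11 between Ccl7 and Ccl12 and then Ccl8, and in a separate cluster the order is Ccl5, Ccl9, Ccl6, Ccl3 and Ccl4. Neighbors did not share a profile throughout, since Ccl6 lies between Ccl9 and Ccl3, and it differed from Ccl9 by 0.25 and from Ccl3 by 0.77 on the measure above. RefSeq promoters were matched for 5 of the 9 genes (Ccl3, Ccl6, Ccl8, Ccl9 and Ccl12) and not for Ccl2, Ccl4, Ccl5 and Ccl7. The 150 bases before the start of 3 neighbors are shown, because Ccl6 and Ccl9 moved together over the samples and Ccl3 did not move with them. Capitals mark matches to the motifs searched on both strands in the 250 bases before the start. All 3 genes are on the minus strand of GRCm38.p6, and the sequences run 5′ to 3′ toward the gene from chr11:83649379-83649528 (Ccl3), chr11:83593088-83593237 (Ccl6) and chr11:83578637-83578786 (Ccl9).
Ccl3: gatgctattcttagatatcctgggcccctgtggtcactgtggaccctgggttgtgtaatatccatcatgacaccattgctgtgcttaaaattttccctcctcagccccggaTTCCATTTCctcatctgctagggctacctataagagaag
Ccl6: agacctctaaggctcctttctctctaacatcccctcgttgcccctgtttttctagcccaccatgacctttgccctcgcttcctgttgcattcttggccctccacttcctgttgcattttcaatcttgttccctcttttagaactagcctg
Ccl9: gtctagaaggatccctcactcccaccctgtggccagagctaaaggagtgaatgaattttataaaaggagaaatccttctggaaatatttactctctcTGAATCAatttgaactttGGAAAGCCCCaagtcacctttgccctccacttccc

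The capitals in Ccl3 are the reverse complement of GAAANNGAA, the core of the interferon-stimulated response element, from 39 to 31 bases before the start, and 7.13% of 32851 RefSeq promoters held this motif in the same window. In Ccl9 the first capitals match TGANTCA, the AP-1 motif (6.75% of promoters), from 53 to 47 bases before the start. The second capitals match the reverse complement of the kappaB consensus (7.25%), from 35 to 26 bases before the start. The letters TTCNNNGAA, known as the gamma-activated sequence (7.02%), were not in these windows. The windows of Ccl6, Ccl8 and Ccl12 held none of the 4 motifs. A match is a description of letters in the window and not of a bound site.

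The size of the differences depended on the scale to which tumors were set. The housekeeping geometric means were 745, 592 and 957 in PBS 1, PBS 2 and 4, and PBS 3. In STING agonist 1 to 4 they were 591, 564, 675 and 782. The permutation test on these 7 samples cannot show that the groups had equal means. With the TMM normalization of edgeR, which centers the bulk of the panel, the panel median of the log2 fold change moved from 0.21 to -0.02, and the share of calls that were higher moved from 93.0% (133 of 143) to 68.5% (87 higher and 40 lower). With the size factors of DESeq2 this share was 64.3% (81 higher and 45 lower) and with the total panel count 68.7% (68 higher and 31 lower). Relative to the panel median under housekeeping scaling, the log2 fold changes were 0.42 for Ccl2, 0.56 for Ccl7, 0.48 for Ccl8, 0.36 for Ccl12, 0.69 for Ccl3, 0.73 for Ccl4, 0.42 for Ccl5, -0.38 for Ccl6 and -0.22 for Ccl9. The same 7 chemokines kept positive log2 fold changes, and Ccl6 and Ccl9 negative ones, under each of the 5 scalings drawn in the plot of scalings. The calls were fewer, with 2 of the 9 under TMM (Ccl4 and Ccl7), 1 under the DESeq2 size factors (Ccl7) and 4 under the total panel count (Ccl2, Ccl3, Ccl5 and Ccl7).

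**Figure D3:**
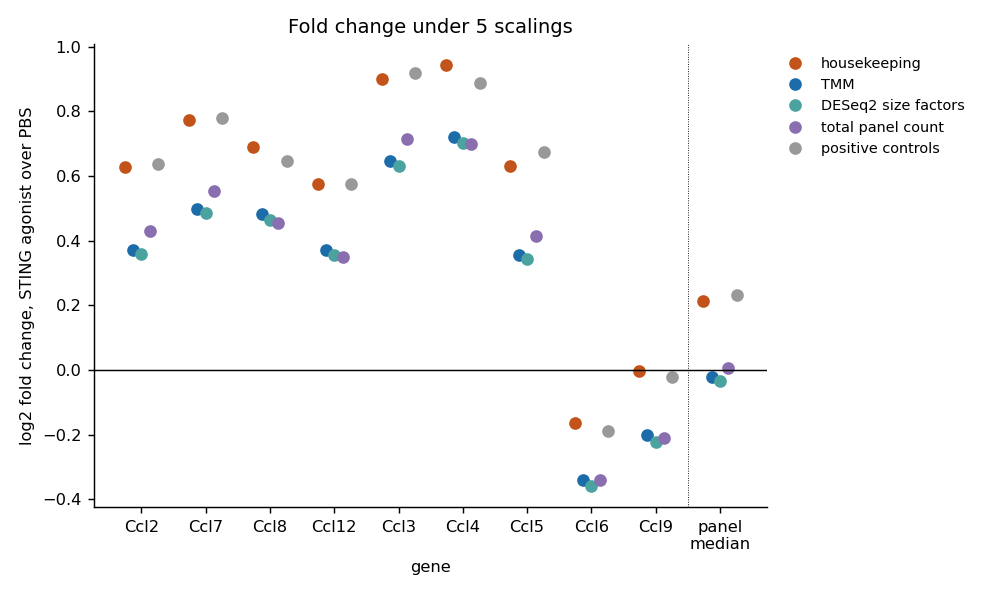
Log2 fold change (STING agonist over PBS, vertical axis) of each chemokine and the median of all 750 panel genes under 5 scalings, each a color. Scaling to the bulk of the panel (TMM, DESeq2 size factors, total panel count) lowers every gene by a similar amount, with the panel median moving from 0.21 to between -0.04 and 0.01, and the order of the 7 higher chemokines over Ccl6 and Ccl9 is kept.

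Receptors of these ligands were also on the panel. Ccr2, the monocyte receptor for Ccl2, Ccl7 and Ccl12, had 32.0, 23.7 and 56.4 scaled counts in PBS 1, PBS 2 and 4, and PBS 3, and 144, 107, 58.2 and 113 in STING agonist 1 to 4. The groups were separate, although STING agonist 3 lay just above PBS 3, and Ccr2 was called without adjustment, with a log2 fold change of 1.48 (adjusted p = 0.171 after Benjamini-Hochberg correction in the quasi-likelihood fit of edgeR). Ccr1, a receptor for Ccl6 and Ccl9, was not called, with means of 94.3 ± 44.0 (SD, n = 3) and 126 ± 13.7 (SD, n = 4) and a log2 fold change of 0.41. Ccr3 was not above background in any sample.

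The 12 other CC chemokines on the panel, which serve mostly dendritic cells, lymphocyte homing or eosinophils, gave 0 calls by edgeR with or without adjustment, beside 17.7% of the panel called higher and 1.33% lower without it. Their median log2 fold change was -0.04, against 0.21 over the panel. Only 3 of them had a mean of at least 20 counts, and 4 averaged at or under background. Ccl11, an eosinophil attractant whose gene lies between Ccl7 and Ccl12, had means of 59.2 ± 22.5 (SD, n = 3) and 75.2 ± 21.1 (SD, n = 4). Ccl21a, which guides cells into lymphoid tissue, ranged from 2.37 scaled counts in the averaged PBS 2 and 4 to 95.6 in STING agonist 2, and Ccl25 had means of 51.7 ± 8.84 (SD, n = 3) and 44.5 ± 8.42 (SD, n = 4).

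**Figure D4:**
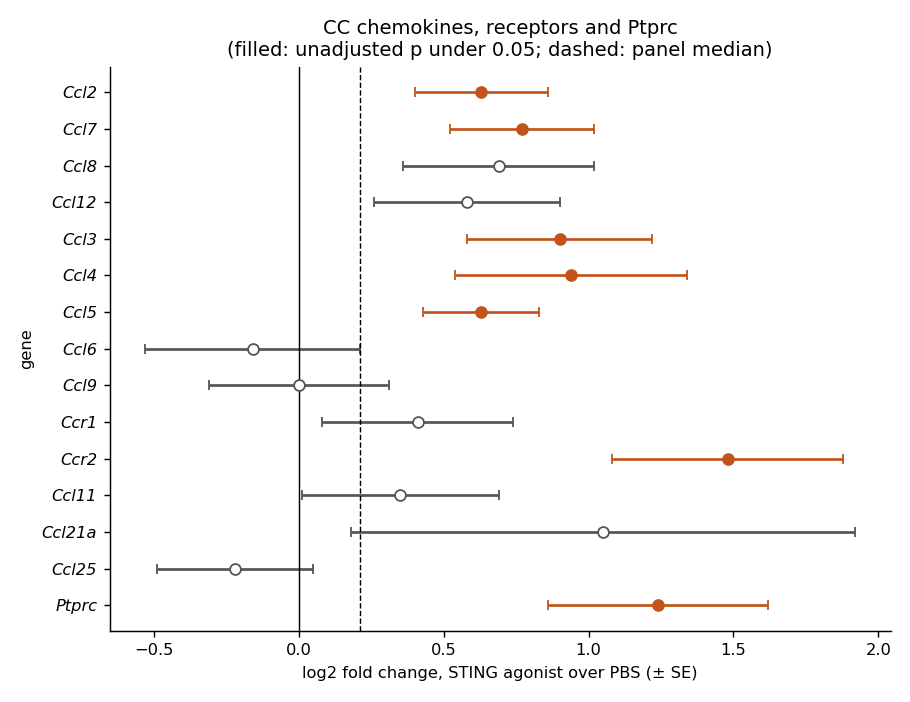
Log2 fold change (STING agonist over PBS, horizontal axis) ± SE of the 9 chemokines, 2 of their receptors, 3 other CC chemokines and Ptprc, with filled points for an unadjusted p under 0.05 and a dashed line at the panel median of 0.21. Ccr2 and Ptprc lie at 1.48 and 1.24, to the right of all 9 chemokines.

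Among 25 genes of the signals known to induce CC chemokines, 6 were called higher and 0 lower, beside 17.7% and 1.33% of the panel, with a median log2 fold change of 0.24. Among them were Irf1, Irf7, Irf8, Stat2 and Il1b. Irf1, a transcription factor of the interferon response, went from 1014 ± 147 (SD, n = 3) to 2042 ± 444 scaled counts (SD, n = 4). Il1b, the gene of an inflammatory cytokine of myeloid cells, had 13.2, 37.9 and 32.2 scaled counts in the PBS samples and 190, 60.9, 46.7 and 90.6 in the treated ones, highest in STING agonist 1 and 4, as were Ccl2, Ccl7, Ccl3, Ccl4 and Ccl5.

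Ptprc, which marks all leukocytes, was also called higher in the treated tumors. It had 110, 42.6 and 113 scaled counts in PBS 1, PBS 2 and 4, and PBS 3, and 261, 169, 142 and 272 in STING agonist 1 to 4. The groups did not overlap, and the log2 fold change was 1.24 (adjusted p = 0.181 after Benjamini-Hochberg correction in the quasi-likelihood fit of edgeR). When each chemokine was set against Ptprc of the same sample, as log2((chemokine + 1)/(Ptprc + 1)), the mean of all 9 ratios was lower in the treated tumors, as it was in 714 of all 749 panel genes other than Ptprc, whose median difference was -1.09. The difference was -0.67 for Ccl2, -0.58 for Ccl7, -0.53 for Ccl8, -0.64 for Ccl12, -0.36 for Ccl3, -0.34 for Ccl4, -0.71 for Ccl5, -1.44 for Ccl6 and -1.29 for Ccl9. Of the 9, 0 reached an unadjusted p under 0.05 in the two-sided exact permutation test over 35 arrangements, where 26.4% of the panel (198 genes) did with a lower ratio and 3 genes with a higher one, and 0 panel genes passed after Benjamini-Hochberg adjustment (lowest adjusted p = 0.106). The smallest p that 35 arrangements can give is 0.0286, and the 201 genes at that value were too few for any to pass adjustment over 749, so the adjusted count says nothing about single genes. With the mean of the monocyte and macrophage genes in place of Ptprc, the difference turned positive for 7 of the 9, from 0.18 for Ccl5 to 0.55 for Ccl4, and stayed negative for Ccl6 (-0.55) and Ccl9 (-0.40). In this setting 0 of the 9 reached an unadjusted p under 0.05 in the permutation test. Of the 750 panel genes, 19 did with a lower ratio and 18 with a higher one. Among the PBS samples, the averaged PBS 2 and 4 had the highest ratio to Ptprc for Ccl2 (6.97, against 4.94 and 5.67 in PBS 1 and PBS 3), Ccl3 (0.57, against -1.93 and -0.95), Ccl4, Ccl5, Ccl6, Ccl7 and Ccl9. Without it the difference was -0.11 for Ccl2, -0.07 for Ccl7, -0.50 for Ccl8, -0.63 for Ccl12, 0.31 for Ccl3, -0.24 for Ccl4, -0.20 for Ccl5, -1.17 for Ccl6 and -1.13 for Ccl9.

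**Figure D5:**
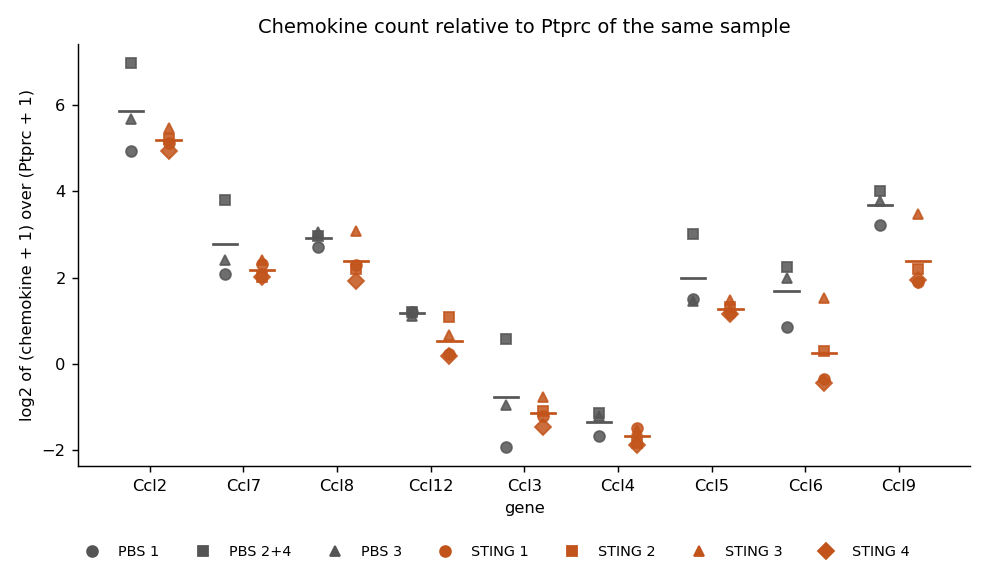
Log2 ratio of each chemokine to Ptprc (vertical axis, pseudocount 1) in the 3 PBS samples (grey) and the 4 STING agonist samples (orange), with a line at the mean of each group. The treated means lie below the PBS means for all 9 genes, by 0.34 (Ccl4) to 1.44 (Ccl6) on the log2 scale, and the levels of different genes cannot be set against each other because probes differ in efficiency.

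The monocyte and macrophage list had 13 genes on the panel, of which 2 were called higher (Emr1 and Fcgr1) and 2 lower (Cd163 and Marco), beside 17.7% and 1.33% of the panel. Its summed scaled counts were 5158, 2479 and 7114 in PBS 1, PBS 2 and 4, and PBS 3, and 8233, 6358, 6494 and 7972 in STING agonist 1 to 4, with Lyz2 most abundant. Emr1, the gene of F4/80, had means of 153 ± 89.9 (SD, n = 3) and 376 ± 109 (SD, n = 4), and Cd163, a scavenger receptor, of 42.5 ± 22.8 (SD, n = 3) and 17.0 ± 5.58 (SD, n = 4). Of 13 T and NK cell genes, 5 were called higher (Cd3e, Cd3g, Cd8a, Cd8b1 and Klrk1) and 0 lower, beside the same shares of the panel, and the list summed to 984, 850 and 1000 in the PBS samples and 1450, 799, 1197 and 1469 in the treated ones, with Gzmb most abundant. Of 11 fibroblast and endothelial genes, Col1a1 and Kdr were called higher and Col3a1, the most abundant, lower, beside the same shares of the panel, with sums of 15699, 14974 and 14429 against 13824, 13921, 11617 and 14507. The part of these cells in the chemokine differences was not tested.

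Genes of neutrophils, eosinophils, mast cells and B cells were examined in the same way. Of 8 neutrophil genes, 4 of which averaged at or under background, 0 were called by edgeR with or without adjustment, beside 17.7% of the panel higher and 1.33% lower without it, and their sums were 340, 628 and 404 in the PBS samples and 693, 324, 593 and 437 in the treated ones, mostly from S100a8, with Cxcr1 not above background in any sample. The 6 eosinophil and mast cell genes summed to 30, 51 and 61 and to 47, 41, 45 and 41, with Kit most abundant and Ms4a2 not above background, and the 7 B cell genes to 35, 38 and 66 and to 64, 30, 65 and 60, with Cd79b most abundant and Cd79a, Pax5, Cr2 and Blk not above background. Both lists also gave 0 calls by edgeR with or without adjustment, beside the same shares of the panel, and 4 of the 6 and 6 of the 7 genes averaged at or under background. The 3 epithelial genes, Cdh1, Muc1 and Epcam, summed to 47, 49 and 64 in the PBS samples and to 56, 30, 51 and 46 in the treated ones, and Epcam averaged 10.1 raw counts against a background of 8.62, although the labels give colon as the tissue.

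Hepatocyte genes marked 1 tumor. The 8 genes of this list summed to 46, 52 and 81 scaled counts in the PBS samples, to 51, 39 and 36 in STING agonist 1 to 3, and to 1444 in STING agonist 4, where Ambp, the most abundant, had 775. Ambp was the 1 gene of the list that was called higher, beside 17.7% of the panel, and its part in the chemokine differences was not tested. Without this tumor, 4 of the 9 chemokines were called (Ccl2, Ccl3, Ccl5 and Ccl7) and 89 panel genes, against 143 with it. Leaving out PBS 1 gave 1 chemokine and 104 panel genes called, and leaving out STING agonist 1 gave 2 chemokines and 84 panel genes.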

How the data were processed

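RNA of 8 whole tumors was measured by the authors with the PanCancer Immune Profiling mouse panel (NanoString nCounter). The deposited values are whole-number counts of 784 probes, neither scaled nor background-subtracted, with a lowest count of 1. Beside 750 immune-related genes the probes comprise 20 housekeeping genes, 6 positive and 8 negative controls. The study's methods name nSolver and R for the later analysis and normalize to housekeeping genes, and versions are not given in the sources used here. Replicate numbers and the split into control and STING tumors follow the labels. That the controls received PBS follows the study, as do dose, age and time. The chemokines and gene lists were chosen with earlier results of these data known.

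Counts were divided by the geometric mean of the 20 housekeeping genes, relative to its mean over samples, and the counts of PBS 2 and PBS 4 were averaged and rounded. All 750 genes were fitted without a filter by edgeR 4.0.16 (R 4.3.3; glmQLFit and glmQLFTest) with Benjamini-Hochberg adjustment, a procedure tested on simulated data. The SE of a fold change was derived from its quasi-likelihood F. Ratios (pseudocount 1) and totals were compared by exact permutation (Python 3.11.15, scipy 1.17.1). Background was set in each sample at 2 SD above the mean of its negative controls, and counts near it carry a large counting error.

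The genes named by rule were the 9 chemokines; their receptors and the other CC chemokines averaging 20 counts or more; from each other list (inducers of CC chemokines, monocyte and macrophage, T and NK cell, neutrophil, eosinophil and mast cell, B cell, hepatocyte, fibroblast and endothelial, and epithelial markers) the most abundant gene and up to 3 of lowest p; Ptprc; and the 2 genes nearest to each chemokine in profile. Other genes listed beside a count were named after their values were seen. Some genes that met the rule are not reported here. Alternatives were 5 other scalings (TMM, DESeq2 1.42.0 size factors, total panel count, positive controls, housekeeping genes with at least 100 counts), a filter at a mean of 20 counts, background subtraction, the Wald test of DESeq2, limma 3.58.1, all 8 tumors as separate samples, the replicate number as a block, and each sample left out. Keeping either PBS 2 or PBS 4 alone was added after seeing the data. RefSeq promoters and gene order (GRCm38.p6) were matched by symbol.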

Additional observations from a re-analysis of the deposited data

Results flagged for a closer look

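Within the 4 treated tumors, 5 of the 63 genes named by rule had a single tumor that stood apart from the other 3 by a gap that, as a share of the whole range of the group, was above Dixon's 95% critical value, where chance gives about 1 in 20 (3.15 of 63). This chance figure holds for independent genes that were not chosen by their values. Ambp, Hamp and C8a were named by abundance or p, values that rest on STING agonist 4, so the 5 cannot be set against it. The PBS group, with 3 samples, was not examined in this way. Ccl6 stood apart in STING agonist 3, with 409 scaled counts against 200 to 206 in the other treated tumors and a gap of 0.97 of the range. PBS 3 was as far above the other PBS samples, with 450 against 199 and 206. Gzmb, a granzyme of cytotoxic cells, was low in STING agonist 2, with 171 scaled counts against 296, 314 and 306 (0.873 of the range). The hepatocyte genes Ambp (775 scaled counts; 0.988), Hamp (254; 0.982) and C8a (112; 0.987) were high in STING agonist 4, where the other treated tumors had at most 11.9, 8.31 and 3.56.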

How the results depend on the processing

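The direction of Ccl2, Ccl7, Ccl8, Ccl12, Ccl3, Ccl4 and Ccl5 was the same, higher in the treated tumors, under all 21 alternatives, with log2 fold changes of 0.36 to 0.77 for Ccl2, 0.48 to 0.91 for Ccl7, 0.37 to 1.01 for Ccl8, 0.26 to 0.89 for Ccl12, 0.62 to 1.11 for Ccl3, 0.67 to 1.30 for Ccl4 and 0.34 to 0.73 for Ccl5. Ccl7 passed the unadjusted threshold in 19 of them, Ccl5 in 18, Ccl2 and Ccl3 in 16 each, Ccl4 in 12, Ccl8 in 5 and Ccl12 in 2, and no alternative called any of the 9 after adjustment. The number of chemokines called was 2 under TMM and 1 under the DESeq2 size factors, and 1 to 6 when 1 sample was left out. The number of panel genes called ranged from 84 to 160 when 1 sample was left out. After adjustment it was 52 by the Wald test of DESeq2 and 0 to 7 when 1 sample was left out, with 1 without PBS 3 and 7 without STING agonist 3. The cause of these shifts was not tested.

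With the replicate number as a block, 1 chemokine (Ccl8) and 86 panel genes were called, and with the block and all 8 tumors as separate samples 7 chemokines and 172 panel genes. Nothing in the labels says that tumors of the same number are paired. The deviations of same-numbered tumors from their group means had correlations of -0.0601, -0.081, -0.284 and -0.128, and no PBS tumor was most like the treated tumor of its own number.

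Ccl9, whose log2 fold change was close to 0, turned positive with all 8 tumors as separate samples (0.14), by limma (0.023), under the replicate block (0.032), under the block with all 8 tumors as separate samples (0.17), with PBS 4 kept alone, an alternative chosen after seeing the data (0.012), and in 4 of the 7 settings that left out 1 sample, whose range was -0.24 to 0.34. Ccl6 ranged from -0.49 to 0.33 when 1 sample was left out. For the ratio to Ptprc, 1 chemokine (Ccl12) passed the unadjusted threshold with all 8 tumors as separate samples, beside 43.3% of the panel with a lower ratio in that setting, and with the monocyte and macrophage list as denominator the difference turned to 0.22 for Ccl2, 0.30 for Ccl7, 0.36 for Ccl8, 0.25 for Ccl12, 0.53 for Ccl3, 0.55 for Ccl4 and 0.18 for Ccl5. Leaving out 1 sample gave differences of -0.94 to 0.31 for Ccl3, and in these settings the permutation test cannot give a p under 0.0667. The cause was not tested. Depth limits Ccl3 and Ccl4 most, whose lowest raw counts were 30 in PBS 1 and 14 in PBS 4.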
